A study of Mus musculus with 4 samples.

Results

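The 8 genes described here encode proteins that make, move, break down or sense prostaglandins, namely *Ptgs1*, *Ptgs2*, *Ptges*, *Hpgd*, *Ptger4*, *Pla2g4a*, *Pla2g4c* and *Slco2a1*. They were chosen by symbol, and each of the 8 was found among the 16015 genes listed for the series and passed the filter on low values, with a mean of at least 10 in each group. Bulk RNA sequencing covered the colonic epithelium of 2 controls and of 2 animals labelled *Bmal1* cKO, all with colitis. Colitis was induced with 3% dextran sulfate sodium (DSS), a polysaccharide that injures the colonic epithelium, given in drinking water for 5 days and followed by 2 days of water, and cells were taken on day 7. The *Bmal1* cKO mice carried *Villin-CreERT2* and *Bmal1* fl/fl and received tamoxifen for 5 days. The labels call the controls wild-type, whereas the methods name *Bmal1* fl/fl mice as controls, so the floxed alleles may be shared by both groups. Whether the controls received tamoxifen is not stated. The mice had a C57BL/6 background and were 2 to 4 months old. Villin drives the recombinase in intestinal epithelium, so other cells of the colon keep *Bmal1*, which encodes a core transcription factor of the circadian clock.

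Prostaglandin synthesis begins when a cytosolic phospholipase A2 releases arachidonic acid from membranes. The cyclooxygenases COX-1 (*Ptgs1*) and COX-2 (*Ptgs2*) convert it to prostaglandin H2, and terminal synthases such as microsomal prostaglandin E synthase (*Ptges*) turn this into the active prostaglandins. Prostaglandin E2 signals through a family of G protein-coupled receptors that includes EP4 (*Ptger4*), and it is inactivated after uptake by the transporter SLCO2A1 and oxidation by 15-hydroxyprostaglandin dehydrogenase (*Hpgd*). In the colon, prostaglandin E2 is known for its part in epithelial repair after injury. Stromal cells, leukocytes and epithelial tuft cells are known sources of cyclooxygenase, and *Hpgd* is known to be abundant in differentiated epithelium.

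The promoters of 4 of these genes are shown because BMAL1 with its partner CLOCK binds the E-box, and because these 4 genes are the cyclooxygenases, the E synthase and the catabolic enzyme on which the results turn. Each stretch runs from 120 bases before to 30 bases after the RefSeq start on GRCm38.p6, 5′ to 3′ on the gene's strand. Capitals mark an E-box, a half-site of the cAMP response element (CRE), a TATA box or a GC box, each searched on both strands. The letters searched were CACGTG for the E-box. They were CGTCA for the CRE half-site. The TATA box was searched for as TATAAA. For the GC box the search used GGGCGG.
*Ptgs1*, chr2:36230306-36230455, plus strand: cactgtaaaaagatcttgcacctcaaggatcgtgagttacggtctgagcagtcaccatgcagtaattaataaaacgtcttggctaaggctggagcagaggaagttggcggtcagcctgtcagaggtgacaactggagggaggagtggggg
*Ptgs2*, chr1:150099911-150100060, plus strand: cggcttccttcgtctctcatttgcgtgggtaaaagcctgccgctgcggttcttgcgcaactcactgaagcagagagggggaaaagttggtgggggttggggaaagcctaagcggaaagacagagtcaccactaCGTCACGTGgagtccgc
*Ptges*, chr2:30903268-30903417, minus strand: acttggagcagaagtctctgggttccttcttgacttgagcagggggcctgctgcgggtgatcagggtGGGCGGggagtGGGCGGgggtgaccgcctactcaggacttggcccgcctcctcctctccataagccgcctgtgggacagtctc
*Hpgd*, chr8:56294432-56294581, plus strand: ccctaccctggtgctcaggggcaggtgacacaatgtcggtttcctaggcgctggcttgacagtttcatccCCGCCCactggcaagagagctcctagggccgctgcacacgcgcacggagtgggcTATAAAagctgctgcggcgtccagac

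RefSeq gave 10 promoters for the 8 genes, each a window of 300 bases (250 before and 50 after the start). An E-box was present in 1 of the 10, that of *Ptgs2*, at bases 17 to 22 after the start, and across all 32851 promoters 7.15% held one. In *Ptgs2* it shares 2 bases with the CRE half-site at bases 14 to 18. This half-site was in 1 of the 10 promoters and in 20.8% of all promoters. The TATA box was in 3 of the 10 and in 13.6% of all promoters, with that of *Hpgd* at bases 5 to 10 after the RefSeq start. The GC box was in 5 of the 10 and in 35.7% of all promoters, and *Ptges* held 2, at 53 to 48 and 42 to 37 bases before the start. A match of letters describes the window and is not a binding site.

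Levels are given as normalized counts, that is, reads scaled by a factor for each library's depth, with 10312791 to 14156639 reads per library on the genes listed. The targeted gene, listed as *Arntl* (*Bmal1*), had normalized counts of 358 and 342 in the controls against 341 and 289 in the libraries labelled *Bmal1* cKO. Its log2 fold change was -0.16 (SE 0.14, adjusted p = 0.389) and -0.40 once GC content and length were corrected for (adjusted p = 0.0771), so it did not pass the threshold, although the 2 groups did not overlap. The counts cover the whole gene, so the deleted part could not be checked on its own. In what follows, *Bmal1* cKO mice are the 2 libraries that carry this label. Genes were tested with limma on log2(normalized count + 1) where the mean normalized count was at least 10, with Benjamini-Hochberg adjustment over the 13983 tested genes and a threshold of 0.05. Fold changes are *Bmal1* cKO minus control on that log2 scale. Across 13975 tested genes the log2 fold change followed GC content (Spearman rho -0.61, across genes, which are not independent replicates and share the 4 libraries), so the values of the 8 genes are also given after a loess correction of every library for GC content and length. Whether this trend is technical or biological was not tested. The p-values rest on 2 mice per group, with each gene's variance drawn by limma toward a trend over all tested genes. They thus do not measure the spread between the mice of a single gene alone. The 95% intervals are not adjusted for the number of genes.

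Of the 8 genes, 3 were lower in the *Bmal1* cKO mice (*Ptgs1*, *Ptgs2* and *Ptges*), 3 were higher (*Hpgd*, *Pla2g4a* and *Pla2g4c*) and 2 did not pass the threshold (*Slco2a1* and *Ptger4*). Among the 8, both cyclooxygenases and the E synthase were thus lower, while the dehydrogenase and both cytosolic phospholipases were higher. These counts stand beside a background in which 27.7% of all tested genes were lower and 29.0% higher, and 56.7% differed in either direction, so the count of 6 of 8 says little about these genes on its own. The values of 7 of the 8 genes did not overlap between the groups, 4 of them below and 3 above the control mice, against 82.1% of all tested genes (41.7% below and 40.3% above). After the GC content and length correction 4 of the 8 were lower, with *Ptger4* joining the first 3, and 0 were higher, against 17.6% lower and 18.4% higher among 13975 genes. The 3 genes that were higher before correction have a GC content of 40.5% to 44.1%, below the median of 49.5% over tested genes, whereas *Ptgs1* and *Ptges* lie above it at 51.0% and 53.1%. *Ptgs2*, at 40.0%, has the lowest GC content of the 8 and was lower on both scales.

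**Figure D1:**
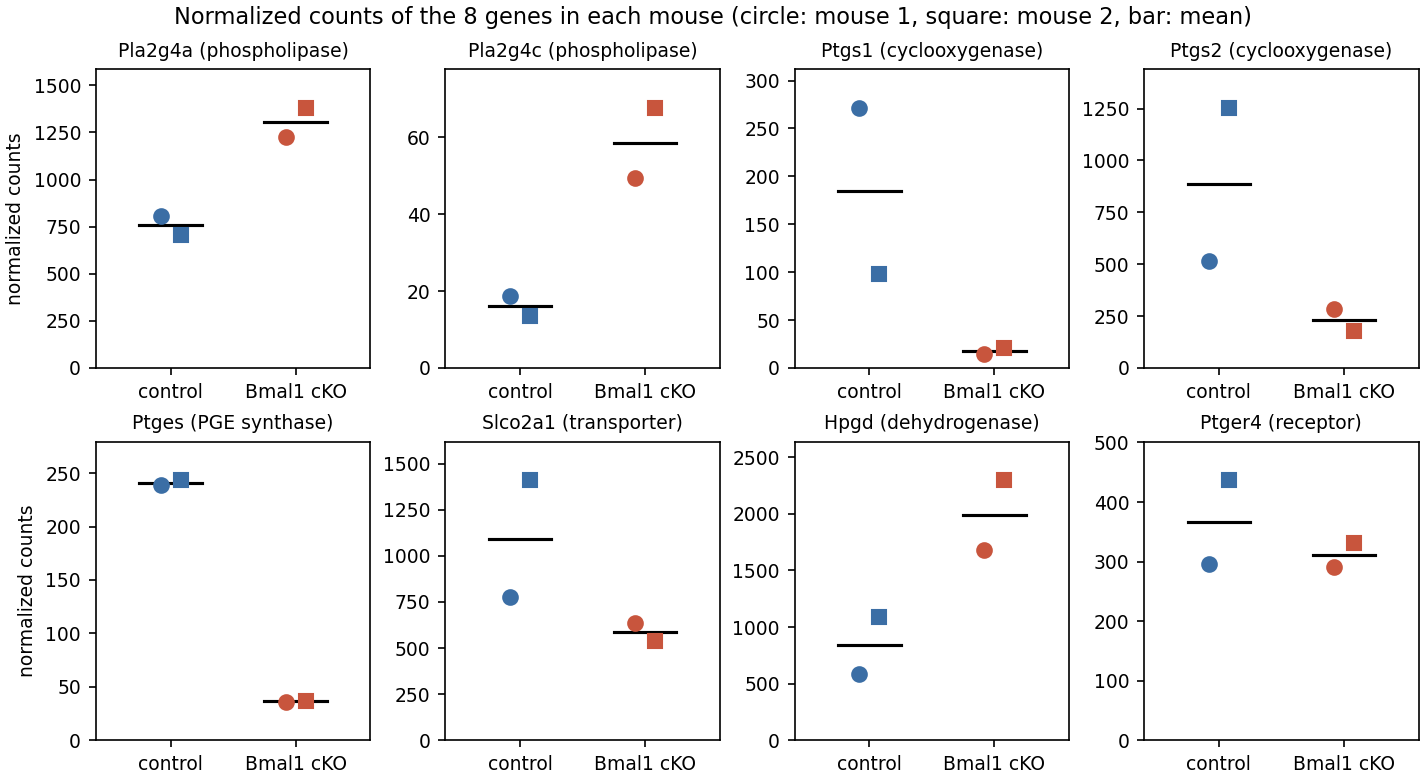
Normalized count of each of the 8 genes in each of the 4 mice, on linear axes from 0, with a circle for mouse 1, a square for mouse 2 and a bar at the group mean. *Ptges* lies at 239 and 243 in the controls against 36.0 and 36.5 in the *Bmal1* cKO mice, and *Ptger4* is the gene whose groups overlap.

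*Pla2g4a* encodes cytosolic phospholipase A2 alpha, which is selective for arachidonic acid. It lies at chr1:149829618-149961290 on the minus strand of GRCm38 (ENSMUSG00000056220). Its normalized counts were 807 and 706 in the controls against 1228 and 1379 in the *Bmal1* cKO mice. Both *Bmal1* cKO mice lay above both control mice, with means of 756 ± 71.6 and 1303 ± 106 (SD, n = 2 per group). The log2 fold change was 0.79 (SE 0.12, 95% interval 0.49 to 1.08, adjusted p = 0.00355 by limma), and 78.2% of tested genes had a lower one. After correction for GC content and length the log2 fold change was 0.11 (adjusted p = 0.468), so the call did not hold.

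*Pla2g4c* encodes cytosolic phospholipase A2 gamma, a calcium-independent member of the family, and lies at chr7:13324655-13360672 on the plus strand (ENSMUSG00000033847). It was the least abundant of the 8 genes in the control mice, with normalized counts of 18.6 and 13.6 from 22 and 16 reads. In the *Bmal1* cKO mice the normalized counts were 49.4 and 67.6, from 48 and 50 reads. The groups did not overlap, and the mean rose 3.64-fold, from 16.1 ± 3.56 to 58.5 ± 12.9 (SD, n = 2 per group). The log2 fold change of 1.80 (SE 0.42, adjusted p = 0.0165) was higher than that of 97.7% of tested genes. It was 1.10 after correction (adjusted p = 0.0935). Without *Bmal1* cKO mouse 1, *Bmal1* cKO mouse 2 or control mouse 2 the adjusted p was 0.0701, 0.124 and 0.0623.

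*Ptgs1* encodes COX-1, the cyclooxygenase that most tissues express constitutively. It lies at chr2:36230426-36252272 on the plus strand (ENSMUSG00000047250). Normalized counts were 271 and 98.3 in the controls against 14.4 and 20.3 in the *Bmal1* cKO mice, the latter from 14 and 15 reads. Control mouse 1 was higher than control mouse 2, and both exceeded both *Bmal1* cKO mice. The mean was 10.7-fold lower in the *Bmal1* cKO mice, at 17.3 ± 4.15 against 185 ± 122 (SD, n = 2 per group). The log2 fold change was -3.18 (SE 0.55, 95% interval -4.56 to -1.81, adjusted p = 0.00567), and it was -3.06 after correction (adjusted p = 0.0138). It was lower than in all but 4.75% of tested genes. Without *Bmal1* cKO mouse 1 the adjusted p was 0.0611, and the log2 fold change was -2.46 without control mouse 1 and -3.91 without control mouse 2. The gene *Gm43621* overlaps 3.81% of the exon length of *Ptgs1* on the opposite strand.

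*Ptgs2* encodes COX-2, the inducible cyclooxygenase, and its promoter held the E-box shown above. It lies at chr1:150100031-150108227 on the plus strand (ENSMUSG00000032487), 139 kb from *Pla2g4a*, with 0 protein-coding genes between them. Normalized counts were 517 and 1252 in the controls against 285 and 180 in the *Bmal1* cKO mice. Here control mouse 2 was the higher control, the opposite order to *Ptgs1*, and the groups did not overlap. The mean was 3.81-fold lower in the *Bmal1* cKO mice (232 ± 74.4 against 884 ± 520, SD, n = 2 per group). On the log2 scale the change was -1.83 (SE 0.45, 95% interval -2.96 to -0.69, adjusted p = 0.0190), and the correction moved it to -2.85 (adjusted p = 0.0103). Without control mouse 2 it was -1.19 (adjusted p = 0.0726), without control mouse 1 it was -2.46, and without *Bmal1* cKO mouse 1 or 2 the adjusted p was 0.0756 and 0.147. The neighbouring genes *Ptgs2* and *Pla2g4a*, which act in successive steps, thus lay on opposite sides of 0 on the uncorrected scale.

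*Ptges* encodes the inducible microsomal synthase that forms prostaglandin E2 downstream of the cyclooxygenases. It lies at chr2:30889471-30929863 on the minus strand (ENSMUSG00000050737). Normalized counts were 239 and 243 in the controls against 36.0 and 36.5 in the *Bmal1* cKO mice, so the mice of each group differed little. The mean was 6.65-fold lower in the *Bmal1* cKO mice (36.2 ± 0.35 against 241 ± 2.84, SD, n = 2 per group). Its log2 fold change was -2.70 (SE 0.22, 95% interval -3.26 to -2.14, adjusted p = 0.000677), and -2.32 after correction (adjusted p = 0.0036). Across 15 alternative settings it ranged from -2.92 to -2.32 and passed the threshold in each of the 15.

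**Figure D2:**
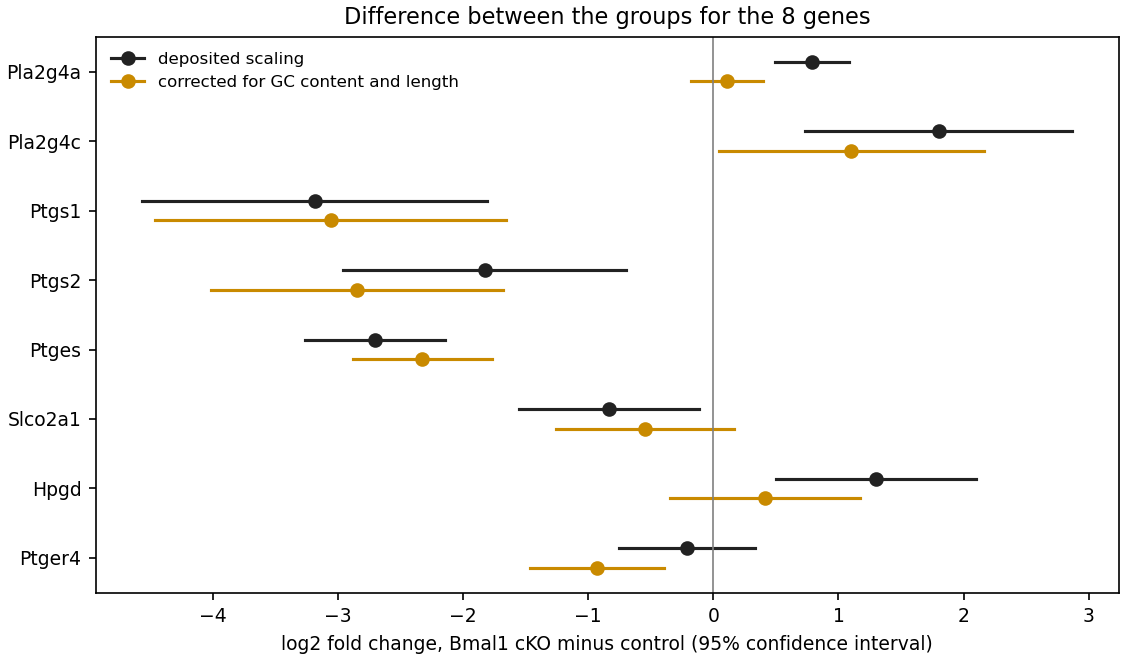
Log2 fold change (*Bmal1* cKO minus control) of each of the 8 genes with its 95% interval, fitted by limma. Black marks the deposited scaling and ochre the correction for GC content and length. *Ptges*, *Ptgs1* and *Ptgs2* lie below 0 on both scales, while *Pla2g4a* moves from 0.79 to 0.11, *Hpgd* from 1.30 to 0.41 and *Ptger4* from -0.21 to -0.93.

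*Slco2a1* encodes the transporter that carries prostaglandins into cells for breakdown. It lies at chr9:102988712-103096002 on the plus strand (ENSMUSG00000032548). Normalized counts were 775 and 1409 in the controls against 637 and 539 in the *Bmal1* cKO mice, so the groups did not overlap. The means were 1092 ± 449 and 588 ± 68.9 (SD, n = 2 per group). The log2 fold change of -0.83 (SE 0.29, 95% interval -1.56 to -0.11) did not pass the threshold (adjusted p = 0.0533), and it was -0.54 after correction (adjusted p = 0.183). DESeq2 on the recovered reads called it, at -0.90 (adjusted p = 0.0105), as did the fit without control mouse 1, at -1.26 (adjusted p = 0.0178). It was -0.40 without control mouse 2 (adjusted p = 0.127), and without *Bmal1* cKO mouse 1 or 2 the adjusted p was 0.165 and 0.257.

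*Hpgd* encodes 15-hydroxyprostaglandin dehydrogenase, which starts the inactivation of prostaglandin E2, and lies at chr8:56294585-56321043 on the plus strand (ENSMUSG00000031613). Normalized counts were 584 and 1090 in the controls against 1682 and 2295 in the *Bmal1* cKO mice. Both *Bmal1* cKO mice lay above both control mice, and the mean was 2.38-fold higher (1988 ± 434 against 837 ± 358, SD, n = 2 per group). Its log2 fold change was 1.30 (SE 0.32, 95% interval 0.50 to 2.10, adjusted p = 0.0184), and 91.5% of tested genes had a lower one. After correction it was 0.41 (adjusted p = 0.318), so this call did not hold either. Without control mouse 1 it was 0.85 (adjusted p = 0.0647), and without *Bmal1* cKO mouse 1 or 2 the adjusted p was 0.0765 and 0.144.

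*Ptger4* encodes EP4, a receptor for prostaglandin E2 that raises cAMP, and lies at chr15:5206661-5244187 on the minus strand (ENSMUSG00000039942). Normalized counts were 296 and 436 in the controls against 291 and 331 in the *Bmal1* cKO mice, so the groups overlapped. The means were 366 ± 99.4 and 311 ± 28.3 (SD, n = 2 per group). The log2 fold change was -0.21 (SE 0.22, 95% interval -0.75 to 0.34, adjusted p = 0.437). It was -0.93 after correction (adjusted p = 0.0251) and 0.070 without control mouse 2 (adjusted p = 0.769), so neither its call nor its direction held across settings. Exons of the pseudogene *Gm15937* and of *Ttc33* cover 15.3% and 1.23% of its exon length on the opposite strand. Whether the counting used strand is not stated, so reads from these overlaps cannot be told apart.

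Levels were compared between genes as normalized counts per kilobase of exon. In the control mice *Hpgd* was highest at 497, followed by *Ptgs2* at 193, *Pla2g4a* at 118, *Slco2a1* at 80.6, *Ptges* at 61.3, *Ptger4* at 55.0, *Ptgs1* at 47.6 and *Pla2g4c* at 4.29 normalized counts per kilobase. The ranges of *Ptgs2* and *Pla2g4a* overlapped there, and those of *Ptges*, *Ptger4* and *Ptgs1* each overlapped that of the gene above. In the *Bmal1* cKO mice *Hpgd* was again highest at 1181 normalized counts per kilobase, now followed by *Pla2g4a* at 204 and *Ptgs2* at 50.7. *Ptger4* (46.8) and *Slco2a1* (43.4) overlapped the gene above them, and *Pla2g4c* (15.6), *Ptges* (9.22) and *Ptgs1* (4.46) came last. *Pla2g4c*, the lowest of the 8 in the control mice, thus stood above *Ptges* and *Ptgs1* in the *Bmal1* cKO mice.

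Genes of breakdown and synthesis were compared by ratios within a library of the counts per kilobase. These are ratios of RNA and do not measure prostaglandin made or broken down. The ratio of *Hpgd* to *Ptges* was 5.70 and 10.5 in the controls against 109 and 147 in the *Bmal1* cKO mice. The ratio of *Hpgd* to *Ptgs2* was 3.07 and 2.37 in the controls against 16.1 and 34.7 in the *Bmal1* cKO mice. Both ratios were higher in each *Bmal1* cKO mouse than in either control mouse. *Hpgd* and *Ptgs2* have nearly the same GC content (40.5% and 40.0%), and their log2 fold changes differed by 3.12 without and 3.26 with the correction. For *Hpgd* and *Ptges*, at 40.5% and 53.1%, the difference was 4.0 without and 2.74 with it. The ratio of *Pla2g4a* to *Ptgs2* was 1.12 and 0.404 in the controls against 3.09 and 5.50 in the *Bmal1* cKO mice, a difference of log2 fold changes of 2.61 (2.96 after correction). These ratios use genes tested above and were not tested again. *Ptges* is not the only E synthase. Per kilobase, *Ptges3* averaged 781 in the controls and 1394 in the *Bmal1* cKO mice, and *Ptges2* 67.9 and 66.0. The ratio to *Ptges* thus describes this synthase alone.

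**Figure D3:**
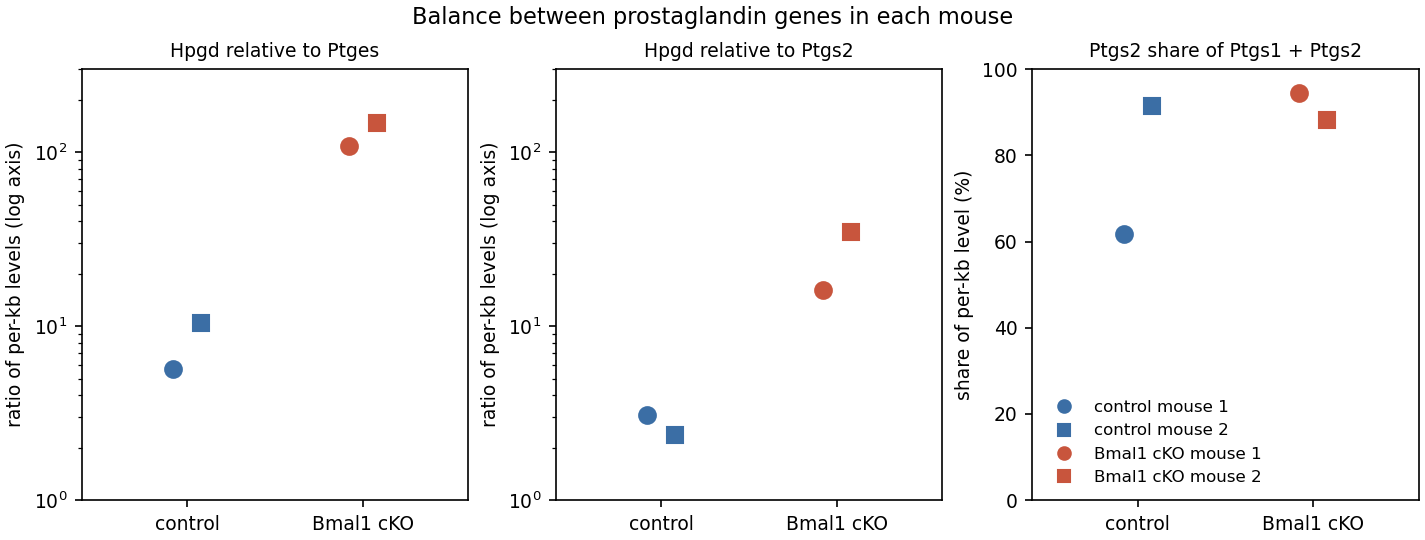
Ratios of normalized counts per kilobase of *Hpgd* to *Ptges* and to *Ptgs2* (log axes), and the *Ptgs2* percentage of *Ptgs1* plus *Ptgs2* (linear axis from 0), in each of the 4 mice. Both *Bmal1* cKO mice lie above both control mice in the 2 ratios, whereas the groups overlap in the percentage.

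The sum of both cyclooxygenases was 183 and 299 normalized counts per kilobase in the controls against 65.9 and 44.5 in the *Bmal1* cKO mice. *Ptgs2* made up 61.8% and 91.5% of this sum in the controls against 94.4% and 88.3% in the *Bmal1* cKO mice. The share overlapped between the groups, and the ratio of *Ptgs2* to *Ptgs1* went from 1.62 and 10.8 to 16.8 and 7.52. The log2 fold changes of *Ptgs1* and *Ptgs2* differed by -1.36 without and -0.21 with the correction.

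Markers of other cell types moved with these results. The preparation was epithelial by its markers, with *Epcam*, an epithelial adhesion protein, at 17455 to 21772 normalized counts in the 4 libraries (adjusted p = 0.984). Summed over 10 epithelial markers, normalized counts were 146468 and 169085 in the controls against 134215 and 141739 in the *Bmal1* cKO mice, with 3 markers lower, 1 higher and a median log2 fold change of -0.39. After correction 0 epithelial markers were lower and 4 higher, with a median of 0.15. The groups did not overlap in this sum. For these and the other marker lists, the shares over all tested genes were 27.7% lower and 29.0% higher, and 17.6% and 18.4% after correction. The 13 tested leukocyte markers, of which 10 were lower and 0 higher (median -3.16), summed to 12225 and 24459 in the controls against 2705 and 2555 in the *Bmal1* cKO mice. Of these, *Ptprc*, the pan-leukocyte surface protein CD45, had normalized counts of 1259 and 745 in the controls against 315 and 414 in the *Bmal1* cKO mice. In bulk RNA, fewer cells of a type and less RNA per cell cannot be told apart.

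The 12 fibroblast and mural markers, of which 9 were lower and 0 higher (median -3.50), summed to 15377 and 3458 in the controls against 491 and 545 in the *Bmal1* cKO mice. *Col1a1*, a fibrillar collagen, fell from 1719 and 408 to 35.0 and 28.4 normalized counts. The 10 endothelial markers, of which 9 were lower and 0 higher (median -4.12), summed to 3052 and 757 in the controls against 88.5 and 124 in the *Bmal1* cKO mice. *Pecam1*, an endothelial adhesion protein, fell from 528 and 126 to 10.3 and 29.7 normalized counts. Control mouse 1, which had the higher fibroblast and mural and the higher endothelial sum, also had the higher *Ptgs1*, but not the higher *Ptgs2*, and *Ptges* was nearly equal in both controls. The leukocyte sum was higher in control mouse 2, whereas *Ptprc* was higher in control mouse 1.

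Tuft cells are chemosensory epithelial cells that use arachidonic acid pathways. Of 9 tested tuft cell markers 8 were lower and 0 higher (median -2.34), and the list summed to 1075 and 1381 normalized counts in the controls against 228 and 316 in the *Bmal1* cKO mice. *Dclk1*, a kinase that marks these cells, had 266 and 210 normalized counts in the controls against 55.5 and 118 in the *Bmal1* cKO mice, and *Pou2f3*, their lineage factor, was the 1 marker of the 6 lists at 0 in both *Bmal1* cKO mice. It was named after its values were seen, had 12 and 17 reads in the controls and was below the filter on low values. After correction 9 leukocyte, 8 fibroblast and mural, 8 endothelial and 8 tuft cell markers were lower. Of the markers counted as lower, 2 leukocyte, 4 fibroblast and mural, 6 endothelial and 2 tuft cell markers had a mean under 10 in the *Bmal1* cKO mice. These passed the filter on low values only through the controls, so the counts and medians of these lists are descriptions. With a pseudocount of 5 the endothelial median was -3.53 and the fibroblast and mural median -3.24. The part of these cell types in the lower *Ptgs1*, *Ptgs2* and *Ptges* was not tested.

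Differentiated colonocytes, the absorptive cells of the surface, are a known site of *Hpgd*. Of 10 colonocyte markers 3 were lower and 3 higher, close to the shares over all tested genes (27.7% and 29.0%), with a median log2 fold change of -0.046. After correction 1 was lower and 4 were higher, with a median of 0.10. The members moved in opposite directions, and those named here beside *Car1* were chosen after their values were seen. *Slc26a3*, a chloride-bicarbonate exchanger, went from 2200 and 4707 to 13157 and 15104 normalized counts (log2 fold change 2.13, adjusted p = 0.00486), and *Slc37a2*, a sugar phosphate transporter (2.24), and *Krt20*, a keratin (0.68), were higher as well. *Car4*, a membrane carbonic anhydrase, was lower (-1.97, adjusted p = 0.00595). These 4 calls held after correction, whereas *Cdhr5* (-1.38) and *Ceacam20* (-0.52) were lower before it alone. Their sum was 46415 and 76064 normalized counts in the controls against 58431 and 64781 in the *Bmal1* cKO mice, so the groups overlapped. *Car1*, a carbonic anhydrase of these cells, had normalized counts of 14059 and 21557 in the controls against 14494 and 15692 in the *Bmal1* cKO mice (adjusted p = 0.455). Within each group the mouse with the higher colonocyte sum also had the higher *Hpgd*, but across the groups this order did not hold. Control mouse 2 had the highest sum (76064) and *Hpgd* at 1090, whereas *Bmal1* cKO mouse 1 had 58431 and 1682. The part of these cells in the *Hpgd* result was not tested.

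**Figure D4:**
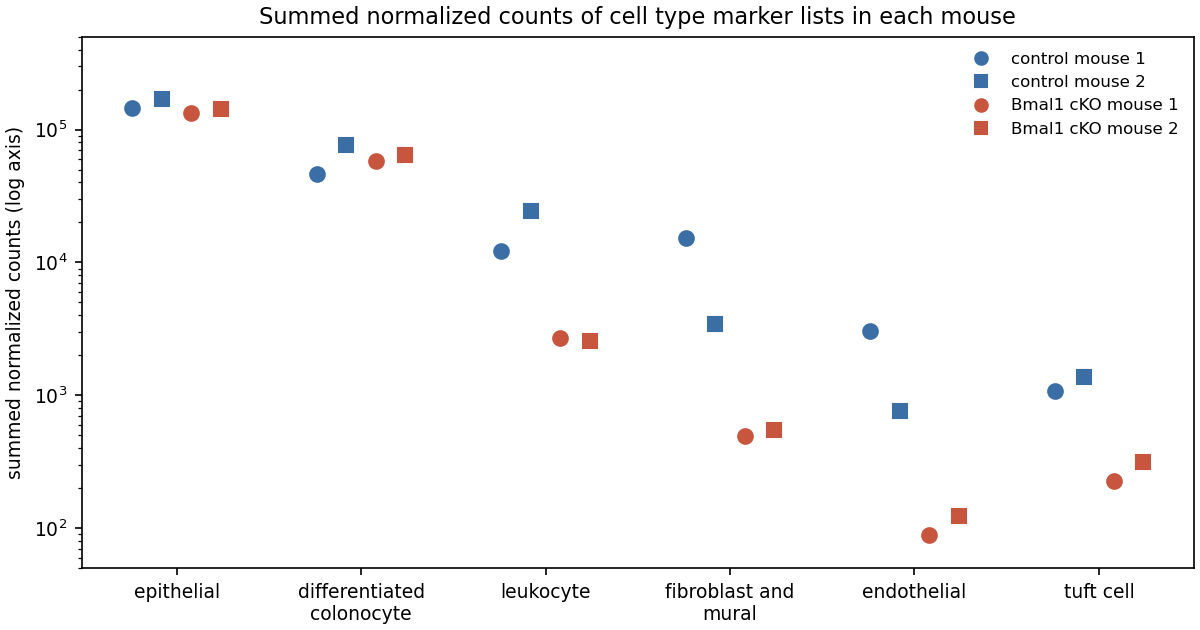
Summed normalized counts of 6 cell type marker lists in each of the 4 mice on a log axis. The colonocyte sums of the groups overlap. In the other 5 lists the sums of both *Bmal1* cKO mice lie below those of both control mice, by a small distance in the epithelial list (134215 and 141739 against 146468 and 169085).

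Beyond the 8 genes, 75 other genes of prostaglandin and arachidonate pathways were grouped in 6 lists. Of these, 60 were listed and 53 tested, with 16 lower, 12 higher and a median log2 fold change of -0.25. Over all tested genes 27.7% were lower and 29.0% higher, with a median of -0.037, and the counts of these lists are to be read against those shares. After correction, when 17.6% of all genes were lower and 18.4% higher, 2 were lower and 2 higher of 9 tested in synthesis, 2 and 1 of 6 in breakdown and transport, and 1 and 0 of 3 receptors. The corrected counts were 3 and 4 of 15 phospholipases A2, 4 and 0 of 8 in leukotrienes and lipoxygenases, and 1 and 2 of 12 in arachidonate handling. Among the genes so called lower, *Ptger2*, *Slco3a1*, *Pla2g2d*, *Alox5ap*, *Ggt5* and *Cysltr1* passed the filter on low values only through the controls. Counts that include them are descriptions. *Cysltr1* was called only after correction and is named after its values were seen. Among the 9 tested genes of prostaglandin synthesis 2 were lower and 3 higher, with a median of -0.72 that became -0.037 after correction and -0.043 where only means of 50 or more were tested. *Hpgds*, the haematopoietic synthase of prostaglandin D2, which is also on the tuft cell list, had normalized counts of 198 and 176 in the controls against 56.6 and 51.4 in the *Bmal1* cKO mice. The difference was -1.77 on the log2 scale (SE 0.22, adjusted p = 0.00206), and -2.67 after correction (adjusted p = 0.00313). *Prxl2b*, a prostaglandin F synthase, had a log2 fold change of -1.09 (adjusted p = 0.0319) that came to -0.037 after correction (adjusted p = 0.935).

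The other prostaglandin E synthases were not lower. *Ptges2*, a membrane-associated synthase, had normalized counts of 342 and 345 in the controls against 346 and 322 in the *Bmal1* cKO mice (log2 fold change -0.043, adjusted p = 0.785), and after correction it was higher (0.53, adjusted p = 0.0239). *Ptges3*, a cytosolic synthase and co-chaperone, had 1874 and 1590 in the controls against 2952 and 3228 in the *Bmal1* cKO mice (log2 fold change 0.84, adjusted p = 0.00278), and its call did not hold after correction (0.18, adjusted p = 0.254). The difference between *Ptges* and these genes was not tested. *Cbr3*, a carbonyl reductase, was higher before (0.76, adjusted p = 0.0193) and after correction (1.56, adjusted p = 0.00506). *Akr1b3*, an aldo-keto reductase, was higher (0.34, adjusted p = 0.0222) but not after correction (0.16, adjusted p = 0.193). *Cbr1*, another carbonyl reductase, at -0.72 (adjusted p = 0.0525), the prostacyclin synthase *Ptgis* at -1.64 (adjusted p = 0.082) and the thromboxane synthase *Tbxas1* at -1.57 (adjusted p = 0.0803) did not pass the threshold, which *Cbr1* passed after correction (-0.86, adjusted p = 0.0366) and *Ptgis* and *Tbxas1* did not.

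**Figure D5:**
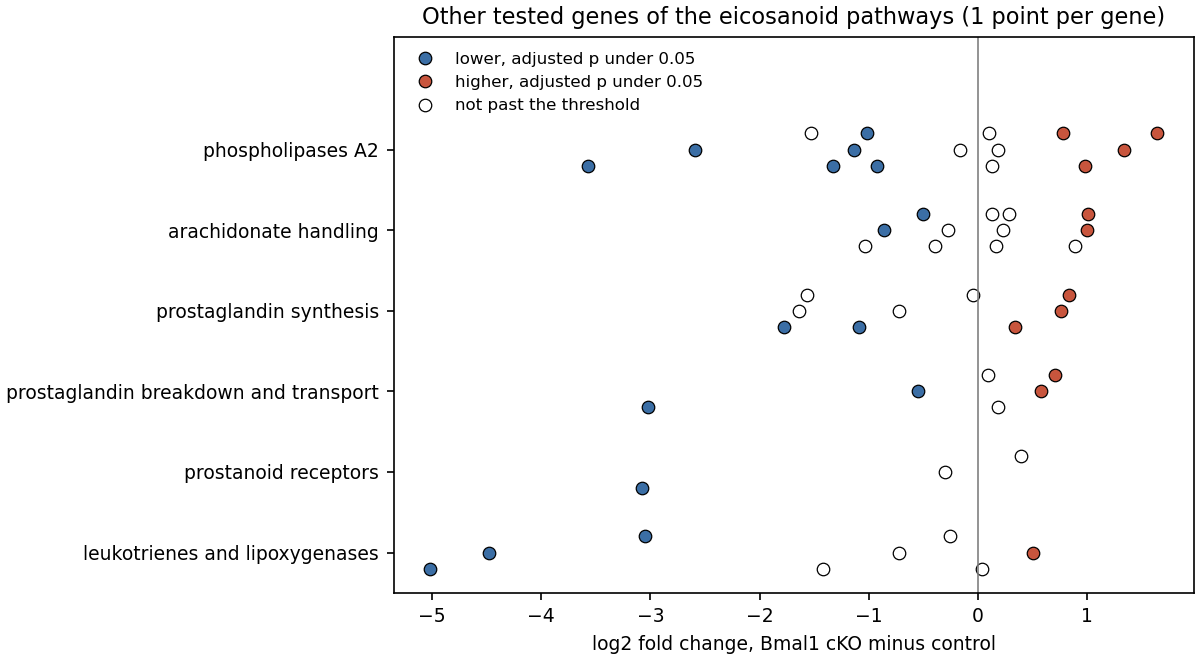
Log2 fold change (*Bmal1* cKO minus control) of each tested gene in the 6 other pathway lists, with a point per gene, filled blue where lower, filled red where higher and empty where the threshold was not passed. The list medians, which are not drawn, run from -1.07 in the leukotriene and lipoxygenase list to 0.15 in the arachidonate handling list.

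Of 7 listed prostanoid receptor genes 3 were tested, with 1 (*Ptger2*) lower and 0 higher, and 0 lower where only means of 50 or more were tested. *Ptger2*, which encodes EP2, the other receptor that raises cAMP, was supported by 31 and 22 reads in the controls against 1 and 2 in the *Bmal1* cKO mice. It passed the filter on low values only through the controls, so its call is given as a description, and these counts are too low for a stable fold. *Ptger3*, which encodes EP3, had normalized counts of 52.4 and 99.1 in the controls against 109 and 82.5 in the *Bmal1* cKO mice (adjusted p = 0.413), and the groups overlapped. *Ptgfrn*, a regulator of the prostaglandin F receptor, had a log2 fold change of -0.30 that did not pass the threshold. *Ptger1*, *Ptgfr*, *Ptgir* and *Tbxa2r* were below the filter on low values. *Tbxa2r*, the thromboxane receptor, was listed at 17 and 1 reads in the controls and at 0 in both *Bmal1* cKO mice.

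Among 6 tested genes of prostaglandin breakdown and transport 2 were lower and 2 higher, beside 27.7% and 29.0% of all tested genes, with a median log2 fold change of 0.14. The reductases *Ptgr2* and *Zadh2*, which act after *Hpgd* in the breakdown of prostaglandins, had log2 fold changes of 0.71 (adjusted p = 0.0192) and 0.58 (adjusted p = 0.0069). After correction these were 0.0073 and 0.39 (adjusted p = 0.0314). The lower genes were the transporters *Slco3a1* and *Abcc1*, at -3.02 and -0.55 (adjusted p = 0.00814 for *Abcc1*), and both were lower after correction (-3.03 and -0.40). *Slco3a1*, with 5 reads in each *Bmal1* cKO mouse, passed the filter on low values only through the controls, so its call is a description. The genes of this paragraph were singled out after their values were seen.

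Of 15 tested phospholipases A2 other than the 2 above, 6 were lower and 4 higher (1 of the lower, *Pla2g2d*, with a mean under 10 in the *Bmal1* cKO mice), beside 27.7% and 29.0% of all tested genes, with a median log2 fold change of -0.17 that became 0.32 after correction. *Pla2g7*, which hydrolyses platelet-activating factor, had normalized counts of 427 and 373 in the controls against 55.5 and 18.9 in the *Bmal1* cKO mice (log2 fold change -3.58, SE 0.50, adjusted p = 0.00288), and it was lower after correction too (-3.78, adjusted p = 0.00721). Macrophages are known to express this gene. *Pla2g2f*, a secreted enzyme, had 616 and 720 in the controls against 263 and 350 in the *Bmal1* cKO mice (-1.13, SE 0.18, adjusted p = 0.00426), and did not hold after correction (-0.39, adjusted p = 0.151). *Pnpla8*, a calcium-independent enzyme, was higher, with 705 and 717 against 2145 and 2309 normalized counts (1.64, SE 0.09, adjusted p = 0.000533), and remained so after correction (0.54, adjusted p = 0.00993). Both *Pnpla8* and *Pla2g4a* were higher before correction, and after it *Pnpla8* passed the threshold and *Pla2g4a* did not. The cytosolic phospholipases *Pla2g4b* (-0.17, adjusted p = 0.767) and *Pla2g4f* (0.13, adjusted p = 0.703) did not pass it before or after correction. They were named after their values were seen.

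Among 8 tested genes of leukotriene and lipoxygenase pathways 3 were lower and 1 higher, beside 27.7% and 29.0% of all tested genes, with a median log2 fold change of -1.07. The genes called, named after their values were seen, were *Alox5* (78.6 and 136 against 12.3 and 10.8 normalized counts, adjusted p = 0.00292), which encodes 5-lipoxygenase, its activating protein *Alox5ap* (46 and 126 reads against 3 and 0) and *Ggt5*, which converts leukotriene C4 to D4, all lower, and *Lta4h*, the leukotriene A4 hydrolase, which was higher (0.51, adjusted p = 0.00675) but not after correction (-0.082, adjusted p = 0.487). *Alox5ap* and *Ggt5*, the latter with 1 and 6 reads in the *Bmal1* cKO mice, passed the filter on low values only through the controls, so their calls are descriptions. *Alox5ap* is also on the tuft cell list and is counted as lower in both lists. Among 12 genes of arachidonate handling 2 were lower and 2 higher, with a median of 0.15. *Fads2*, a desaturase on the route to arachidonic acid, had normalized counts of 1645 and 2206 in the controls against 3631 and 4040 in the *Bmal1* cKO mice. This log2 fold change was 1.01 (SE 0.16, adjusted p = 0.0043), and 1.56 after correction (adjusted p = 0.00413).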

How the data were processed

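RNA was sequenced from colonic epithelial cells of 2 control and 2 *Bmal1* cKO mice. Alignment to GRCm38 (STAR) and normalization (DESeq2) were done by the authors. The counter and annotation release are not given in the sources used here, and the labels and the methods name different library kits. The deposited values are a signal: read counts per gene, scaled by DESeq2's factor for the library. The deposited mean and the columns of the authors' own comparison (log2 fold change, its error, statistic, p-value and adjusted p-value) were not used. In each library 100% of the values came out as whole reads within a tolerance of 0.02. On these reads edgeR called 3812 genes lower and 3861 higher, against 3871 and 4059 in the main test.

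Values were taken to log2(value + 1) and tested two-sided by limma 3.58.1 (trended prior variance) for genes with a mean of at least 10, and 95% intervals come from this fit. An exact permutation test of 2 against 2 mice cannot pass the threshold and was not run. The groups come from the labels. Alternatives were pseudocounts of 0.5 and 5, no filter or a mean of at least 50, library total and TMM scaling, edgeR 4.0.16 and DESeq2 1.42.0 on the recovered reads, loess correction (span 0.3) for GC content of the longest transcript and exon length (GENCODE M21), a replicate block and leaving out each mouse. The fit was tested on simulated data. Promoters come from RefSeq on GRCm38.p6. The replicate libraries of each group differed by more than sampling noise (chi-square per gene 42.1 and 11.1).

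The members and lists were chosen with earlier results of these data known. Genes named were the 8 members, the targeted gene, 6 defining markers, the other receptors and terminal synthases, and other pathway genes that were called, did not overlap between the groups, averaged 100 or more and changed by 1 or more on the log2 scale. Other genes are said to be chosen after their values were seen.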

Additional observations from a re-analysis of the deposited data

How the results depend on the processing

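The 3 lower members kept their direction under every alternative run, and *Ptges* passed the threshold in each. The correction for GC content and length took *Hpgd* to 0.41, *Pla2g4a* to 0.11 and *Pla2g4c* to 1.10, all short of the threshold, and *Ptger4* to -0.93, past it. It left 0 members higher, and over all genes 2458 lower and 2570 higher. *Slco2a1* passed the threshold with DESeq2 (-0.90), library total scaling (-1.06) and the replicate block (-0.83, adjusted p = 0.0402). Library total scaling moved the median log2 fold change of all genes from -0.037 to -0.26 and the calls to 4885 lower and 3091 higher, a shift that its value for *Slco2a1* includes. With a mean of at least 50, *Pla2g4c* was not tested.

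The labels do not say whether the replicate numbers pair the mice. The differences between mouse 1 and mouse 2 of each group correlated at -0.0908 across genes. With a single difference per group this cannot show whether the mice were paired. The replicate block gave 4 lower and 3 higher members, and 3789 lower and 3899 higher genes in all. With the correction and the replicate block together *Hpgd* was 0.41 (adjusted p = 0.102), *Pla2g4a* 0.11 (adjusted p = 0.523), *Pla2g4c* 1.10 (adjusted p = 0.148) and *Ptger4* -0.93 (adjusted p = 0.0227), with 0 members higher and 2077 lower and 2177 higher genes in all.

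Leaving out each mouse gave a single mouse in one group, assumed to vary like the other group. The lowest and highest log2 fold changes were 0.85 and 1.75 for *Hpgd*, 0.69 and 0.88 for *Pla2g4a*, 1.58 and 2.02 for *Pla2g4c*, -0.49 and 0.070 for *Ptger4* (reversed without control mouse 2), -3.91 and -2.46 for *Ptgs1*, -2.46 and -1.19 for *Ptgs2* and -1.26 and -0.40 for *Slco2a1*, which passed without control mouse 1. Members called ranged from 1 to 4 lower and 1 to 2 higher, and genes in all from 2205 to 2852 lower and 2654 to 3154 higher. Of the counts of the gene lists 294 stayed within 1.5 times and 66 moved. Medians of the receptor, phospholipase A2, arachidonate handling, epithelial and colonocyte lists changed sign with the correction, and that of the synthesis list moved from -0.72 to -0.037. Depth limits genes that rested on few reads in one group, among them *Pla2g4c*, *Ptgs1*, *Ptger2*, *Alox5ap*, *Ggt5* and *Slco3a1*.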
